A study of Mus musculus with 10 samples.

Results

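Genes that bind, take up or activate fatty acids were followed in cells sorted from the inflamed spinal cord by whether they make arginase 1. The 10 genes were chosen by name from the 55487 genes of the deposited count table. They comprise the 3 fatty acid binding proteins (FABPs) *Fabp3*, *Fabp4* and *Fabp5*, the scavenger receptor *Cd36*, the 2 fatty acid transport proteins (FATPs) *Slc27a1* and *Slc27a4*, and the 4 long-chain acyl-CoA synthetases (ACSLs) *Acsl1*, *Acsl3*, *Acsl4* and *Acsl5*. The cells came from male mice of the C57BL/6 background, 8 to 12 weeks old, with the genotype given in the labels as Arg1tm1Lky. This is an *Arg1*-eYFP reporter, in which the *Arg1* promoter drives a yellow fluorescent protein (YFP). Cells were sorted by YFP and not by a stain of ARG1 protein. All mice had experimental autoimmune encephalomyelitis (EAE), a model of multiple sclerosis, and were taken at the peak of disease. Viable CD3-Ly6G-CD45+CX3CR1+ spinal cord cells were divided into 200000 YFP+ cells (ARG1+) and 100000 YFP− cells (ARG1−) per animal. This gave 5 ARG1+ and 5 ARG1− libraries from 5 animals that gave both, and values below follow the animals in the order m2, m6, m234, m235, m236. The sort does not separate monocyte-derived cells from macrophages resident at the borders of the central nervous system, and all 10 libraries share the disease and the reporter allele. Whether ARG1+ and ARG1− cells differed in the genes of fatty acid binding, uptake and activation is the question of the comparison.

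Long-chain fatty acids are poorly soluble, and cells hold them on carrier proteins. CD36 and the FATPs help to move fatty acids across the plasma membrane, the ACSLs join them to coenzyme A, and the FABPs carry them within the cytosol. Activated fatty acids can be oxidized, built into phospholipids or stored as triglycerides, and unbound fatty acids and their products are ligands of the PPAR nuclear receptors. Macrophages in demyelinated tissue take up myelin, which is rich in lipid.

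The libraries held 28870482 to 33826355 counts in ARG1+ and 8396863 to 35455643 in ARG1−. In ARG1−, m234 was the shallow library, and the remaining 4 held at least 28212174. Levels are given as CPM, counts per 1000000 of a library, after TMM scaling, which adjusts library sizes for composition. Before that scaling, 1 CPM stood for 8.40 counts in the smallest library. As a check of the sort, *Arg1* lay at 587 to 1047 CPM in ARG1+ and at 14.3 to 26.9 CPM in ARG1−.

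Of the 10 members, 9 passed the filter of more than 1 CPM in at least 3 libraries and *Fabp3* did not. The test was edgeR's quasi-likelihood test over 13740 genes, with the false discovery rate (FDR) adjusted over all of them. At an FDR below 0.05, 3 of the 9 tested members were higher in ARG1+ (*Fabp5*, *Fabp4* and *Slc27a1*) and 0 were lower, where 6.82% of all tested genes were called higher and 6.15% lower. *Fabp4* and *Fabp5* also passed an absolute log2 fold change of 1, which 0.560% of tested genes did in the higher direction. The study names *Fabp4* and *Fabp5* from these same libraries, so that their direction is not independent evidence. *Fabp4*, *Fabp5* and *Slc27a1* were also the 3 members whose ARG1+ libraries lay wholly above the ARG1− libraries, against 6.15% of tested genes. All 9 tested members had a fold change above 0, with a median log2 fold change of 0.18, and the median over all tested genes was 0.00.

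**Figure D1:**
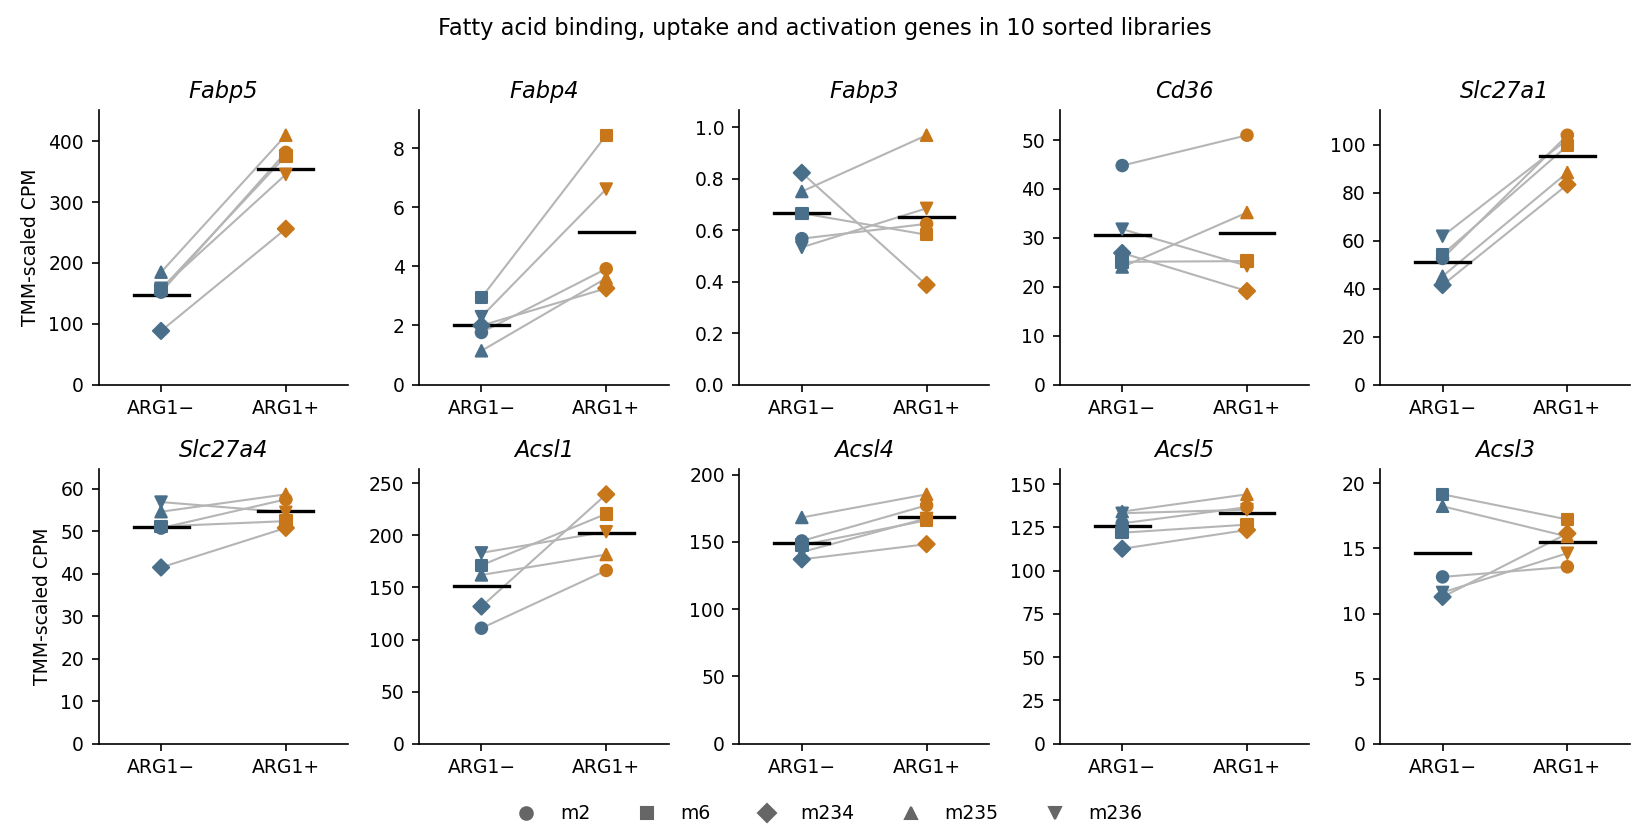
TMM-scaled CPM (y axis, from 0) of each member in the ARG1− (blue) and ARG1+ (orange) library of each animal, with gray lines joining the libraries of an animal, a symbol per animal and black bars at the group means. The ARG1+ points of *Fabp5*, *Fabp4* and *Slc27a1* all lie above the ARG1− points, whereas the points of *Cd36*, *Fabp3* and *Acsl3* overlap and their lines cross.

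Because ARG1+ and ARG1− cells of an animal were sorted from the same spinal cord, the animal was also fitted as a block. With this replicate block, 5 of the 9 tested members were called higher, *Acsl1* and *Acsl4* in addition to the 3 above, where 16.8% of all tested genes were called higher in that fit. Comparing within animals, 6 of the 9 tested members were higher in the ARG1+ library of all 5 animals, as were 20.0% of tested genes. These were *Fabp5*, *Fabp4*, *Slc27a1*, *Acsl1*, *Acsl4* and *Acsl5*.

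**Figure D2:**
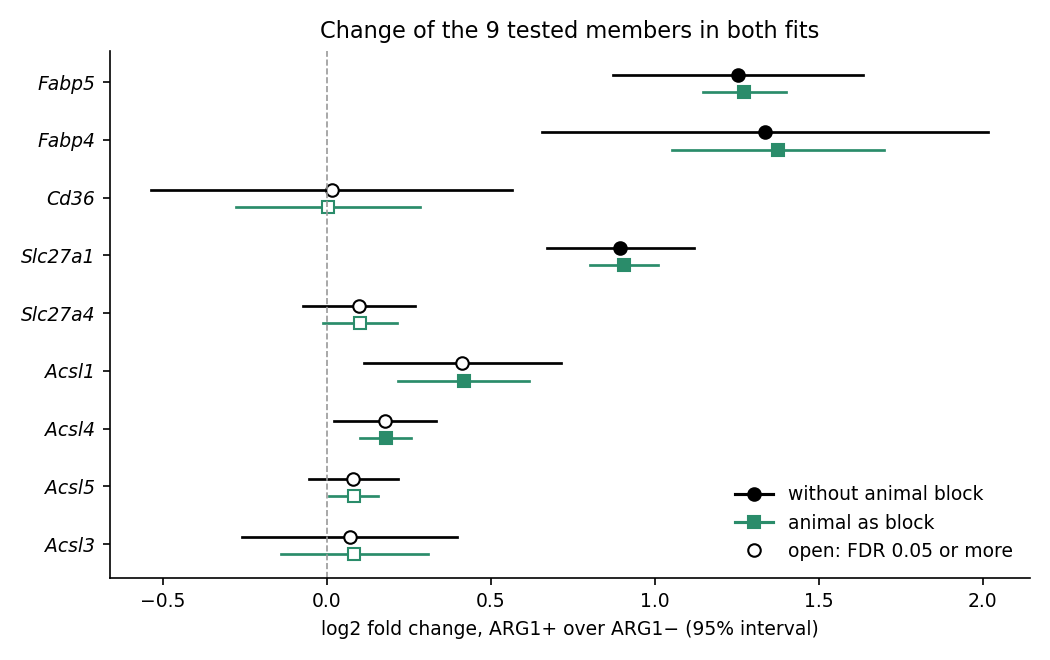
Log2 fold change of ARG1+ over ARG1− (x axis) with its 95% interval for the 9 tested members, in the fit without a block (black circles) and with the animal as a block (green squares). Filled symbols have an FDR below 0.05. The intervals of *Fabp5*, *Fabp4* and *Slc27a1* lie clear of 0 in both fits, *Acsl1* and *Acsl4* are filled only with the block, and those of *Cd36*, *Slc27a4* and *Acsl3* span 0 in both.

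Among the cytosolic carriers, *Fabp5* was the most abundant. FABP5, the epidermal FABP, is made by many macrophages and can deliver fatty acids to the nucleus. *Fabp5* (ENSMUSG00000027533, GRCm38 chr3:10012548-10016607, plus strand) lay at 382 CPM in m2, 376 in m6, 256 in m234, 410.0 in m235 and 346 in m236 among the ARG1+ libraries. In the ARG1− libraries of the same animals it lay at 152, 157, 88.2, 185 and 158 CPM. Both libraries of m234 were the lowest of their group and both of m235 the highest, and the groups did not overlap. The means were 354 ± 59.3 CPM in ARG1+ and 148 ± 35.8 in ARG1− (SD, n = 5 each). The log2 fold change was 1.25 ± 0.17 (SE) with an edgeR FDR of 0.00121, a fold of 2.38 (95% interval 1.83 to 3.10). Within animals the fold ranged from 2.18 in m236 to 2.90 in m234. Without the shallow ARG1− library of m234, which was also the lowest in *Fabp5*, the log2 fold change was 1.12 (FDR 4.85e-04).

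Some reads of *Fabp5* cannot be told from those of processed pseudogenes, copies of its spliced RNA elsewhere in the genome. *Gm6166* (chr9:57483963-57484371, plus strand) matches the coding sequence of *Fabp5* over 407 aligned positions with 400 identical bases (98.3%). Of the 356 stretches of 50 bases in the coding sequence, the read length of the libraries, 184 occur unchanged in *Gm6166* and 84 in *Gm14328*, another processed pseudogene. The sequences show what a read can and cannot separate. The first is a stretch found in both genes, at positions 18 to 67 of the *Fabp5* coding sequence counted from 1 at the start codon. The other pair covers positions 164 to 213 of the *Fabp5* coding sequence and the *Gm6166* bases aligned with them. Positions printed for *Gm6166* are those of the *Fabp5* coding sequence. The capital letter marks the base that differs (T189C, the *Fabp5* base first).
*Fabp5* and *Gm6166*, positions 18 to 67: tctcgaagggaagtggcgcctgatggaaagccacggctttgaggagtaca
*Fabp5*, positions 164 to 213: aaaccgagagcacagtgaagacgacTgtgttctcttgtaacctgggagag
*Gm6166*, positions 164 to 213: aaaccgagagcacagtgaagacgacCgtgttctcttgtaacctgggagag
All 3 were read from the GRCm38 genome and the GENCODE annotation, 5′ to 3′ on the strand of each gene. A read of the first stretch matches both loci exactly, and a read of the other window matches its own locus exactly and the other of the pair with 1 mismatch.

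Counts at both pseudogenes followed those at *Fabp5* library by library. *Gm6166* held 3002, 3273, 2228, 3504 and 2968 counts in the ARG1+ libraries of m2, m6, m234, m235 and m236, and *Fabp5* held 11010, 11627, 7944, 13548 and 10602. In ARG1−, *Gm6166* held 1356, 1561, 211, 1467 and 1356 counts beside 4824, 5645, 751, 5175 and 4755 for *Fabp5*. The *Gm6166* count was thus 25.9% to 28.1% of the *Fabp5* count in ARG1+ and 27.7% to 28.5% in ARG1−. For *Gm14328* this share was 15.1% to 17.2% in ARG1+ and 14.8% to 20.9% in ARG1−, the highest being the shallow library of m234. Each pseudogene had a fold change near that of *Fabp5*, with log2 values of 1.20 (FDR 0.00109) for *Gm6166* and 1.16 (FDR 3.21e-04) for *Gm14328*. When the counts of *Fabp5* were summed with those of the 5 pseudogenes that share stretches with it, a choice made after the values were seen, the log2 fold change was 1.24 with an FDR of 0.00111. Of all tested genes, *Gm6166* and *Gm14328* were also the most like *Fabp5* in pattern, with a Pearson r of log2 CPM over the 10 libraries of 0.999 and 0.988, followed by *Erc1* (0.987). These r values are a description over libraries that share 5 animals and differ by sort. How many reads come from each locus cannot be told from these counts.

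**Figure D3:**
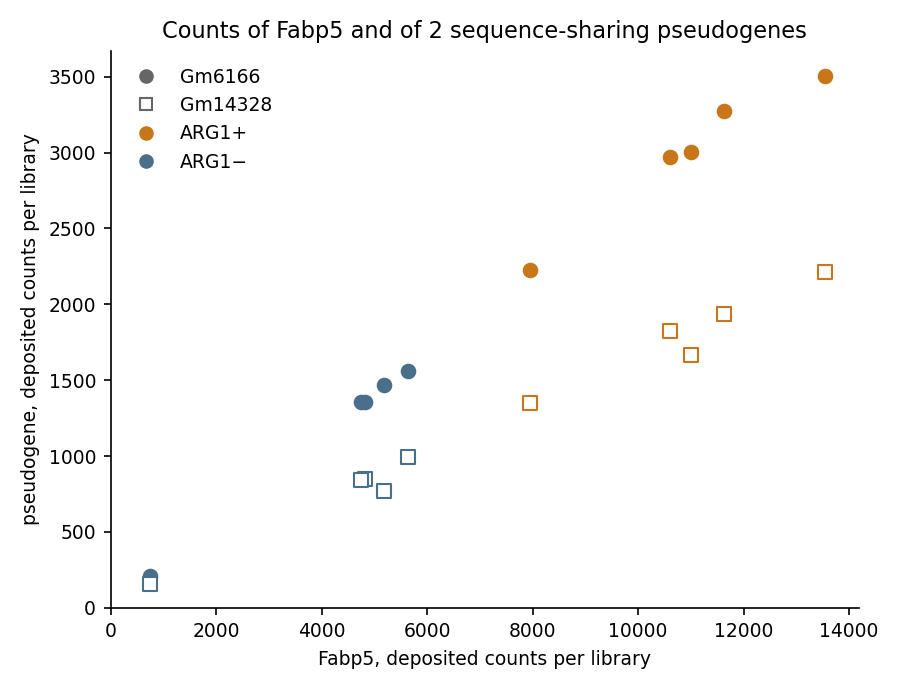
Deposited counts of the pseudogenes *Gm6166* (circles) and *Gm14328* (squares) on the y axis against deposited counts of *Fabp5* on the x axis, with a point per library (orange ARG1+, blue ARG1−). Both pseudogenes rise with *Fabp5* across the 10 libraries, with *Gm6166* at 25.9% to 28.5% of the *Fabp5* count throughout.

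*Fabp4*, the FABP of adipocytes, macrophages and capillary endothelium and a classical PPARγ target, was far less abundant. *Fabp4* (ENSMUSG00000062515, chr3:10204088-10208576, minus strand) lay at 3.92 CPM in m2, 8.44 in m6, 3.26 in m234, 3.60 in m235 and 6.62 in m236 in ARG1+. The ARG1− libraries of these animals lay at 1.76, 2.94, 2.00, 1.14 and 2.30 CPM. The m6 library was the highest of each group, and the lowest ARG1+ library stood just above the highest ARG1− library. *Fabp4* rose by a log2 value of 1.34 ± 0.31 (SE), with an edgeR FDR of 0.0172 and a fold of 2.52 (95% interval 1.58 to 4.04). Its libraries held 101 to 261 counts in ARG1+ and 17 to 106 in ARG1−, fewer than those of any other tested member in either group. The call was lost without both libraries of m2 (log2 1.37, FDR 0.0653) or of m236 (log2 1.28, FDR 0.0705). *Fabp4* shares no stretch of 50 bases with another gene of the annotation. The genes most like it in pattern were *Pgap1* (r of 0.97 over the 10 libraries), *Pomk* (0.97) and *Tmem250-ps* (0.96).

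*Fabp3*, the heart-type FABP of muscle, was near the limit of detection. It held 18, 18, 12, 32 and 21 counts in the ARG1+ libraries of m2, m6, m234, m235 and m236 and 18, 24, 7, 21 and 16 in the ARG1− libraries. At 0.387 to 0.968 CPM in ARG1+ and 0.533 to 0.822 in ARG1−, the groups overlapped, 0 of 10 libraries exceeded 1 CPM, and *Fabp3* was not tested. Of its 774 distinct stretches of 50 bases, 37.3% also occur in other genes, mainly the pseudogene *Fabp3-ps1*, which held 1 to 36 counts per library. The coding sequences of *Fabp4* and *Fabp5* are 61.1% identical and those of *Fabp3* and *Fabp4* 65.7%, and the members share no stretch of 50 bases with each other.

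At the plasma membrane, the receptor and the transporters differed in their behavior. *Slc27a1* encodes FATP1, which takes up fatty acids and has acyl-CoA synthetase activity. *Slc27a1* (ENSMUSG00000031808, chr8:71568882-71587302, plus strand) lay at 104, 99.5, 83.4, 88.4 and 102 CPM in the ARG1+ libraries of m2, m6, m234, m235 and m236. It lay at 52.6, 54.2, 41.5, 45.2 and 61.9 CPM in the ARG1− libraries. The groups stood apart with a wide gap, and both m234 libraries were the lowest of their group. It rose by a log2 value of 0.90 ± 0.10 (SE, edgeR FDR 4.05e-04), a fold of 1.86 (95% interval 1.59 to 2.17), with 1.65 to 2.01 within animals. *Slc27a1* had the lowest FDR of the members and the smallest standard error among those called. Of its stretches of 50 bases, 1.69% occur in other genes.

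*Slc27a4*, which encodes FATP4, another fatty acid transporter with acyl-CoA synthetase activity, lay at 57.5, 52.4, 50.8, 58.7 and 54.5 CPM in ARG1+ and at 50.7, 51.1, 41.5, 54.6 and 56.9 in ARG1−, in the same order of animals. The groups overlapped, and m236 was lower in its ARG1+ library. The log2 fold change of 0.10 (95% interval −0.07 to 0.27) did not pass the test (edgeR FDR 0.433). Scaled by exon length, *Slc27a1* made up 68.3% to 73.1% of the summed level of the 2 transporters in ARG1+ and 54.2% to 60.8% in ARG1−, so that its share was higher in the ARG1+ library of all 5 animals.

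*Cd36*, the scavenger receptor for long-chain fatty acids and oxidized lipoproteins, lay at 51.0, 25.2, 19.1, 35.2 and 24.3 CPM in the ARG1+ libraries of m2, m6, m234, m235 and m236. In ARG1− it lay at 44.8, 25.1, 26.9, 24.0 and 31.8 CPM. Both libraries of m2 were the highest of their group, and the remaining libraries of both groups overlapped. Within animals the log2 difference ran from −0.49 in m234 to 0.55 in m235, and 3 of 5 animals were higher in ARG1+. The log2 fold change of 0.01 had an edgeR FDR of 0.979, and its 95% interval of −0.53 to 0.56 also holds changes of the size of many called genes. With the block the interval was −0.28 to 0.28. The direction of *Cd36* flipped between settings, including with total counts as library sizes (−0.028).

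Of the activating enzymes, *Acsl1* had the largest difference. ACSL1 is an ACSL of mitochondria and the endoplasmic reticulum that rises in inflammatory macrophages. It lay at 166, 221, 239, 182 and 204 CPM in the ARG1+ libraries of m2, m6, m234, m235 and m236, and at 111, 171, 132, 162 and 183 in the ARG1− libraries. Both m2 libraries were the lowest of their group, the groups overlapped, and the ARG1+ library was the higher in all 5 animals. The log2 difference within an animal ranged from 0.15 in m236 to 0.86 in m234, the animal with the shallow ARG1− library. Its log2 fold change was 0.41 ± 0.14 (SE, 95% interval 0.11 to 0.71) and missed the threshold with an edgeR FDR of 0.0694. With the animal as a block it was 0.42 with an FDR of 0.0057. It also passed by DESeq2 (FDR 0.0277), with no filter on low counts (0.0491) and without the ARG1− library of m236 (0.0491).

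*Acsl4* prefers arachidonic acid and other polyunsaturated fatty acids and is required for the lipid composition that allows ferroptosis. It lay at 177, 166, 148, 185 and 167 CPM in ARG1+ and at 151, 148, 137, 168 and 142 in ARG1−, again in the order m2, m6, m234, m235 and m236. The groups overlapped, whereas the differences within animals were small and even, at log2 values of 0.11 to 0.23. The log2 fold change of 0.18 ± 0.07 (SE) had an edgeR FDR of 0.119 without the block and of 0.0031 with it. This is a fold of 1.13 (95% interval 1.02 to 1.26) without the block.

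*Acsl5*, an ACSL of mitochondria and the endoplasmic reticulum, lay at 137, 127, 124, 144 and 135 CPM in ARG1+ and at 127, 122, 113, 134 and 133 in ARG1−. The ARG1+ library was the higher in all 5 animals, by log2 values of 0.02 to 0.13. Neither fit called it, with a log2 fold change of 0.08 and FDRs of 0.414 without and 0.0835 with the block. *Acsl3*, the ACSL of lipid droplets and the endoplasmic reticulum, was the least abundant synthetase, at 13.6 to 17.2 CPM in ARG1+ and 11.3 to 19.2 in ARG1−. Its log2 fold change of 0.07 (95% interval −0.26 to 0.40) had an edgeR FDR of 0.795, and its direction flipped when the ARG1− library of m236 (−0.0084) or both libraries of m234 (−0.011) were left out. Exons of *Acsl5* overlap those of *Zdhhc6* on the opposite strand over 167 bases, and those of *Acsl3* overlap *Utp14b* on the same strand over 206 bases. The sources used here do not state if reads were counted by strand.

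To compare levels between genes, CPM were divided by the length of the merged exons in kilobases. On this scale *Fabp5* was the highest member in both groups, at 359 ± 60.0 in ARG1+ and 150 ± 36.3 in ARG1− (SD, n = 5), 7.39 and 4.12 times the level of *Acsl1*, the next. In ARG1+, *Acsl1* (48.5 ± 7.03) was followed by *Slc27a1* (33.6 ± 3.20), *Acsl4* (31.7 ± 2.61) and *Acsl5* (31.4 ± 1.95), and the libraries of these last 3 overlapped. In ARG1−, the libraries of *Acsl1* (36.4 ± 7.15) and *Acsl5* overlapped, as did those of *Acsl5* and *Acsl4*. There *Slc27a1* (18.0 ± 2.82) stood below *Acsl5* (29.7 ± 2.09) and *Acsl4* (28.0 ± 2.22), and its libraries did not overlap those of *Acsl4*. *Slc27a1* thus took the third place in ARG1+ and the fifth in ARG1−. *Slc27a4* and *Cd36* followed in both groups, with overlapping libraries. In ARG1+, *Fabp4* (5.77 ± 2.52), *Acsl3* and *Fabp3* closed the order. In ARG1−, *Acsl3* (3.70 ± 0.957) stood above *Fabp4* (2.26 ± 0.740), and *Fabp3* was again the last. *Fabp4* and *Acsl3* overlapped in both groups. Within the 3 FABPs, *Fabp5* took 97.4% to 98.8% of the summed level in ARG1+ and 96.5% to 98.8% in ARG1−. Within the 4 ACSLs, *Acsl1* took 36.7% to 48.5% in ARG1+ and 30.2% to 41.8% in ARG1−. The share of *Acsl1* was higher in the ARG1+ library of all 5 animals, whereas the share of *Acsl5* was lower in all 5. A share depends on the other ACSLs, and the level of *Acsl5* itself was higher in the ARG1+ library of all 5 animals.

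**Figure D4:**
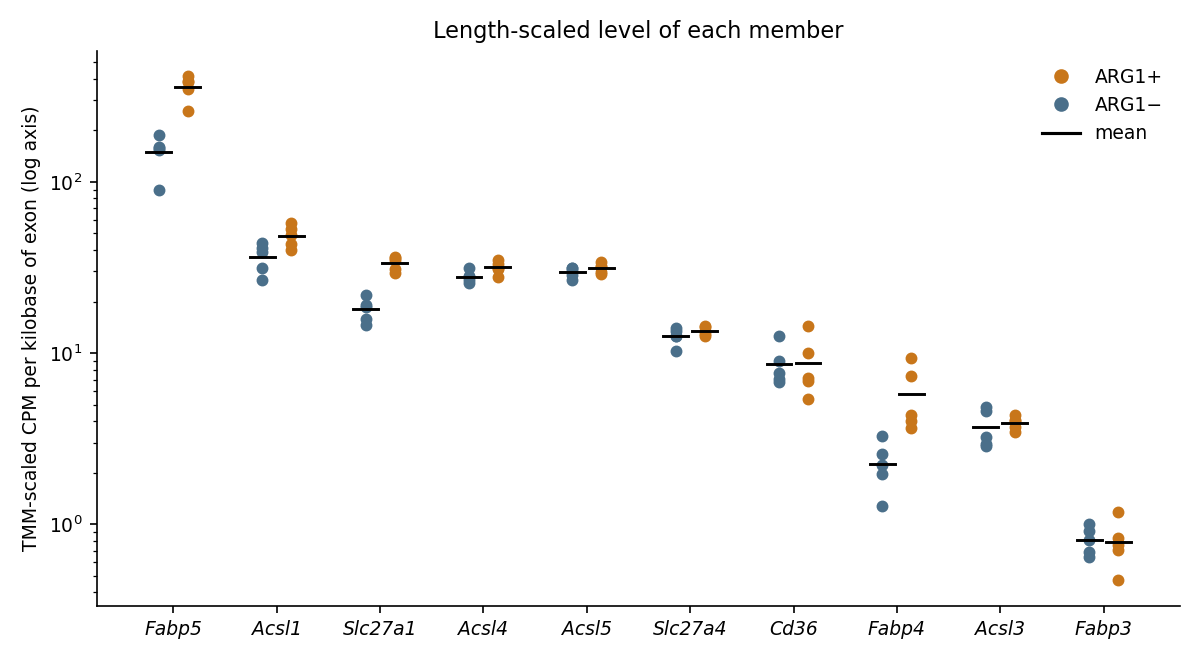
TMM-scaled CPM per kilobase of merged exon (y axis, log scale) of each member, ordered by its mean in ARG1+, with a point per library (orange ARG1+, blue ARG1−) and black bars at the means. *Fabp5* stands above all other members in both groups, and the ARG1+ libraries of *Slc27a1* reach the level of *Acsl4* and *Acsl5*, which its ARG1− libraries do not.

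Other genes that handle fatty acids were read from lists written by role. Beside the counts of these lists and of the marker lists below, 6.82% of all tested genes were called higher and 6.15% lower. With the block 16.8% were called higher. The share called lower with the block was not worked out, so that counts of lower genes in that fit have no such share beside them. In the remaining FABP family and the related retinoid carriers, 1 of 12 genes was tested. This was *Fabp7*, the brain-type FABP, which was higher at 3.50 ± 1.11 CPM in ARG1+ and 1.69 ± 0.562 in ARG1− (log2 0.996, edgeR FDR 0.0291). This call was lost in 6 of the 10 fits that left out a single library (m2, m6, m235 and m236 of ARG1+, m2 and m235 of ARG1−) and in 4 of the 5 that left out an animal, all but m234, with an FDR of up to 0.136. Among 11 other genes of membrane uptake, 6 were tested, 3 were higher and 0 lower. *Cav1* and *Cav2*, which form caveolae, rose with log2 fold changes of 1.58 (FDR 0.00134) and 0.82 (FDR 0.00517), and *Scarb2*, a lysosomal relative of *Cd36*, with 0.29 (FDR 0.0372). *Scarb2* was the most abundant of this list at 341 CPM in ARG1+ and 278 in ARG1−. Its call was lost with total counts as library sizes, in 5 of 10 fits without a single library (m2, m235 and m236 of ARG1+, m2 and m6 of ARG1−) and in 4 of 5 without an animal, all but m234 (FDR up to 0.149), whereas *Cav1* and *Cav2* were called in every setting.

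Of 10 genes that act in or regulate the release of fatty acids from lipoproteins or the uptake of lipoproteins, 6 were tested, 4 were higher and 0 lower. *Lpl*, the lipoprotein lipase itself, was not called, with a log2 fold change of 0.34 (edgeR FDR 0.268 without and 0.141 with the block). *Lipa*, the lysosomal acid lipase, rose from 203 ± 10.2 to 314 ± 13.9 CPM (log2 0.63, edgeR FDR 1.10e-04). *Lrp1*, an apolipoprotein E receptor, rose by a log2 value of 0.45 (FDR 0.00645), *Lmf1*, a maturation factor of lipases, by 0.22 (FDR 0.0477) and *Angptl4*, an inhibitor of lipoprotein lipase, by 0.96 (FDR 0.0440). *Apoe*, the most abundant gene of the list, had a log2 fold change of 0.45 that did not pass without the block (FDR 0.238) and passed with it (FDR 6.32e-04), so that 5 genes of the list were higher with the block. With single libraries or animals left out, 2 to 4 genes of this list were higher. *Lmf1* lost its call in 9 of 10 fits without a single library and 4 of 5 without an animal, and *Angptl4* in 7 and 4, whereas *Lipa* and *Lrp1* were called in every setting.

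Beyond the ACSL family, 5 of 14 other acyl-CoA synthetases were tested and 0 were called in either direction by edgeR, with or without the block. The most abundant was *Aacs*, which activates acetoacetate, at 20.9 CPM in ARG1+ and 22.5 in ARG1− (log2 −0.11, FDR 0.512). None of the 13 tested genes of acyl-CoA binding and thioesterases was called either, and with the block 1 was higher and 1 lower. The lower of the pair was *Acbd3*, a Golgi protein with an acyl-CoA binding domain and the most abundant of the list, with a log2 fold change of −0.16 (FDR 0.0643 without and 0.0109 with the block).

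Of 19 enzymes that use acyl-CoA, 17 were tested, 2 were higher and 0 lower. *Gpam*, the mitochondrial glycerol-3-phosphate acyltransferase, rose by a log2 value of 0.48 (edgeR FDR 0.00417), and *Cpt1a*, which admits acyl groups to mitochondria for oxidation, by 0.32 (FDR 0.0313). *Soat1*, which esterifies cholesterol and was the most abundant of the list, had a log2 fold change of 0.20 (FDR 0.0587 without and 0.00201 with the block). *Cpt1a* lost its call in 6 of 10 fits without a single library and in 4 of 5 without an animal. With the block, 7 of these genes were higher and 6 lower, where 16.8% of all tested genes were called higher in that fit.

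Among 12 PPARs, partner receptors and related regulators of transcription, 9 were tested and 1 was called. *Rxra*, the partner of the PPARs in DNA binding, rose from 85.4 ± 5.52 to 125 ± 8.40 CPM (log2 0.55, edgeR FDR 3.92e-04). With the block 3 were higher and 1 lower. *Pparg*, which encodes PPARγ, had a log2 fold change of 0.61 (FDR 0.0752 without and 0.00896 with the block). The most abundant of the list was *Cebpb*, a transcription factor and not a receptor, with a log2 fold change of −0.05 (FDR 0.760). Of 12 other PPAR target genes, 10 were tested, 5 were higher and 0 lower. Besides *Angptl4* and *Cpt1a*, these were *Hilpda*, which inhibits triglyceride breakdown at lipid droplets (log2 1.01, FDR 0.00575), *Abca1*, the cholesterol exporter (0.73, FDR 1.76e-04), and *Acaa2*, a thiolase of fatty acid oxidation (0.41, FDR 0.0202). With the block 6 were higher, the sixth being *Plin2*, a coat protein of lipid droplets (log2 0.52, FDR 0.0890 without and 2.78e-05 with the block), named after its values were seen. With single libraries or animals left out, 2 to 5 of these targets were higher, and *Hilpda* and *Abca1* were called in every setting. Of 6 fatty acid receptors, 3 were tested and 2 were lower, namely *Ffar2*, a receptor for short-chain fatty acids (log2 −1.41, FDR 0.0277), and *Gpr84*, a receptor for medium-chain fatty acids (−0.69, FDR 0.0277). *Hcar2*, the receptor for hydroxybutyrate and the most abundant of the 3, had a log2 fold change of −0.38 (FDR 0.0908 without and 0.00266 with the block), so that all 3 tested receptors were lower with the block. The range with libraries or animals left out was 0 to 3 lower receptors.

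**Figure D5:**
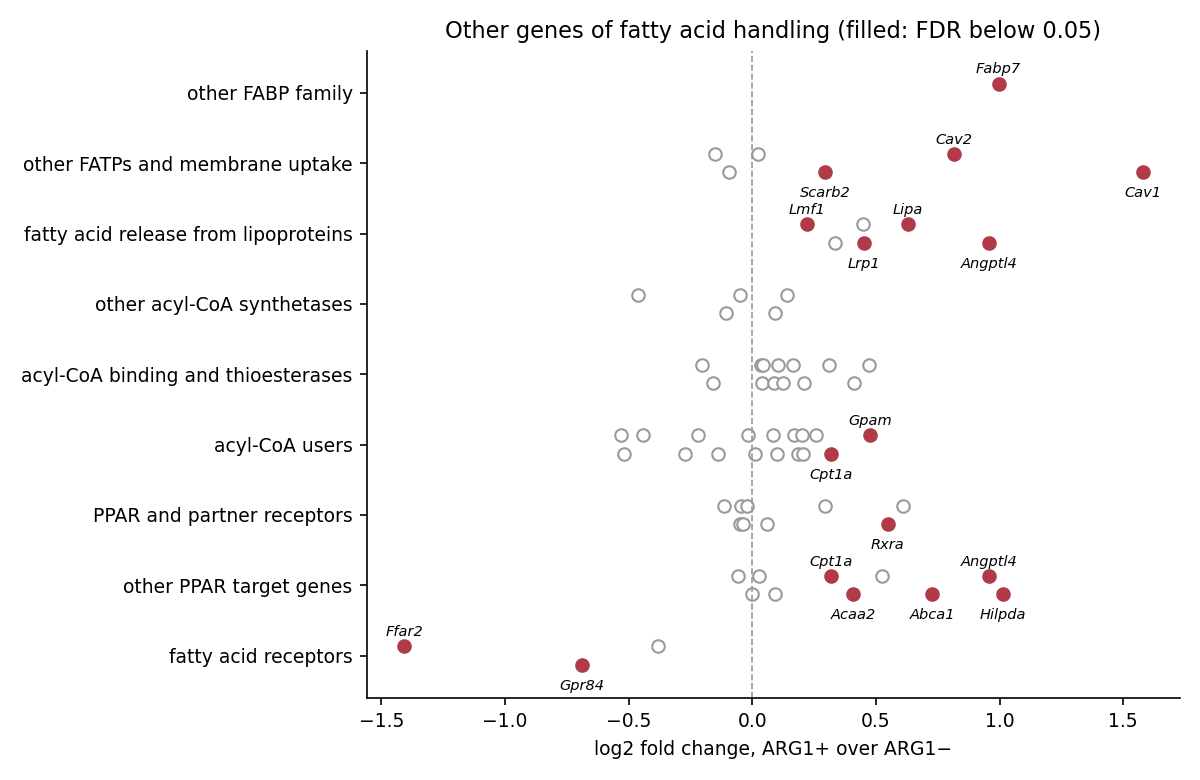
Log2 fold change of ARG1+ over ARG1− (x axis) of each tested gene in 9 lists of fatty acid handling (y axis), with filled red points and names for genes with an edgeR FDR below 0.05 and open gray points for the rest. Genes of membrane uptake, lipoprotein lipid release and PPAR targets hold most of the red points to the right of 0, whereas the 2 red points of the fatty acid receptors lie to the left.

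Markers of other cell types moved with the sort, and their part in the results above was not tested. In bulk libraries, fewer cells of a type and less RNA per cell cannot be told apart. Of 6 markers of border macrophages, 2 were tested and both were higher (*Mrc1* and *Pf4*). *Mrc1* lost its call in 7 of 10 fits without a single library and in 3 of 5 without an animal, whereas *Pf4* was called in every setting. The summed level of the list was 49.8 to 133 CPM in ARG1+ and 18.7 to 55.6 in ARG1−, although *Cd163*, *Lyve1* and *Folr2* held at most 8 counts in any library. Of 8 dendritic cell markers, 5 were tested and 4 were lower (summed 9.26 to 23.9 CPM in ARG1+, 20.5 to 39.6 in ARG1−). Of 6 monocyte markers, 3 were lower and 0 higher (2586 to 9074 CPM and 2605 to 7808), and with the block 4 were lower and 2 higher. The 2 higher were *Chil3* (log2 0.34, FDR 0.664 without and 0.00132 with the block) and *F13a1* (log2 0.78, FDR 0.0511 and 1.62e-05). The 7 microglia markers had 0 calls, with 744 to 1111 CPM in ARG1+ and 795 to 2557 in ARG1−, and with the block 5 were lower. *Fabp4* and *Cd36* are also known from capillary endothelium and adipocytes. Of 9 endothelial markers, 2 were lower and 0 higher (113 to 185 CPM and 145 to 201). The lower were *Flt1* (log2 −0.47, edgeR FDR 0.0370) and *Kdr* (−0.82, FDR 0.0204). *Flt1* lost its call in 7 of 10 fits without a single library and in 3 of 5 without an animal, and *Kdr* in 0 and 2. *Gpihbp1* was at 0 counts in every library and *Cldn5* at 0 to 74. With the block 1 was higher, *Vwf*, at 53.9 CPM in ARG1+ and 36.0 in ARG1− and higher in all 5 animals (log2 0.57, FDR 0.0580 without and 0.00263 with the block). The monocyte, endothelial and astrocyte markers were named here after their values were seen. Of 6 adipocyte markers, *Lep* and *Cidec* were at 0 in every library, *Adipoq* held at most 2 counts and *Plin1* at most 3, and *Lipe* alone was tested and was lower, so that the summed level was 23.2 to 28.4 CPM in ARG1+ and 32.0 to 41.8 in ARG1−. The summed levels of the markers of B cells, T or NK cells, neutrophils and neurons were at most 5.64 CPM in any library. Of these, 1 B cell marker (*Cd79b*) was tested, and neither fit called it. No T or NK cell, neutrophil or neuron marker passed the filter, so that none of them could be called. Oligodendrocyte markers had 0 calls (147 to 180 CPM and 137 to 197), and with the block 1 was higher and 1 lower. Of 6 astrocyte markers 2 were higher (summed 62.4 to 97.3 CPM in ARG1+ and 55.6 to 64.1 in ARG1−). These were *Aldoc*, at 56.4 CPM in ARG1+ and 38.5 in ARG1−, and *Gja1*, at 2.70 and 1.18. *Aldoc*, the largest part of the sum, lost its call in 2 of 5 fits without an animal and in thinned libraries. *Gfap* (log2 −0.38), *Slc1a2* (−0.29) and *Slc1a3* (−1.94) went the other way without a call, and with the block *Slc1a3* was lower.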

How the data were processed

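RNA was measured in 10 libraries of sorted spinal cord cells, 5 ARG1+ and 5 ARG1−. The values are read counts that the authors deposited as whole numbers per gene, without normalization. Per the labels and the methods, 50-base single-end reads of a directional kit were aligned to GRCm38 with STAR (2.7.10b in the submitters' processing notes, which also name Picard) and counted on the basic annotation of Ensembl release 100 in Union mode, which drops reads that overlap several features. All columns were used.

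Genes above 1 CPM in at least 3 libraries (13740) were tested with edgeR 4.0.16 in R 4.3.3 (quasi-likelihood, TMM, Benjamini-Hochberg FDR below 0.05). The study's methods name limma-trend, which was an alternative (limma 3.58.1, prior count 2) beside DESeq2 1.42.0, RLE factors, total counts, other filters, thinning, the animal as a replicate block and left-out libraries or animals. Standard errors and 95% intervals were derived from the quasi-likelihood F statistic. The pairing comes from the animal names in the labels, and residuals of the libraries of an animal correlated across genes at 0.361 to 0.664, against −0.367 to 0.0675 between animals. In a test on simulated counts with 200 of 13740 genes changed 2-fold, edgeR found 173 with 8 false calls, and with the block 169 with 12. The simulated counts held no animal effect, unlike the libraries, so that these numbers cannot show what the block gains or costs here. Exon lengths and sequences came from GENCODE on GRCm38. From each fatty acid list, the text names the most abundant tested gene, the called gene with the largest change and every called gene where there were 5 or fewer. Also named are the 3 genes most like *Fabp5* and *Fabp4* (Pearson r of log2 of CPM plus 0.5, mean CPM above 1). The rule does not cover the marker lists. *Lpl*, *Pparg* and *Plin2* were named outside it, after their values were seen. The members and lists were chosen with earlier results of these data known. From the lists, 1 gene was left out and is not reported here.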

Additional observations from a re-analysis of the deposited data

Results flagged for a closer look

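In each group of 5 libraries, the extreme library's gap to its neighbor was set against the range of the group for each of the 10 members and the total count, 22 groups in all, of which chance flags about 1 in 20. The ARG1− library of m234 stood apart in *Fabp5*, at 88.2 CPM against 152 to 185 in the other ARG1− libraries, with a gap of 0.735 of the range where 0.71 is the limit. Its total of 8396863 counts also stood apart (0.732 of the range). The ARG1+ library of m234, whose total of 31673192 was within the range of its group, was likewise the lowest of its group in *Fabp5* (256 CPM, a gap of 0.637).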

How the results depend on the processing

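*Fabp5* and *Slc27a1* were called higher in all settings run, with log2 values of 1.12 to 1.35 and 0.84 to 0.97 over the left-out libraries and animals. Over these, 2 to 4 members were called higher, 1 or 2 passed both limits, and 0 were lower. A replicate block for the animal gave 5 members called higher by edgeR and by limma-trend. *Acsl1* then passed with 0.42 (edgeR) and 0.43 (limma-trend), and *Acsl4* with 0.18 in both. *Acsl1* also passed by DESeq2 (0.41) and with no filter (0.42), and ranged from 0.30 to 0.49 over the left-out libraries, passing without the ARG1− library of m236. *Fabp4* ranged from 1.09 to 1.53 over these and missed the threshold without both libraries of m2 (1.37) or m236 (1.28). The direction of *Cd36* turned by limma-trend with or without the block (−0.027), with total counts (−0.028) and with thinned libraries (−0.0090), and it ranged from −0.24 to 0.20 over the left-out libraries. *Acsl3* ranged from −0.011 to 0.19. The cause of these shifts was not tested. No other member changed its call under the block.

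Of the lists, acyl-CoA users had 7 higher and 6 lower genes with the block (6 and 5 by limma-trend), 1 or 2 lower with total counts or DESeq2, and 1 to 4 higher and 0 to 2 lower over the left-out libraries. PPARs, partner receptors and related regulators had 3 higher and 1 lower with the block in both tools, 2 higher by DESeq2 and 1 to 2 over the left-out libraries. Acyl-CoA binding and thioesterases had 1 higher and 1 lower with the block in both tools, and 1 lower by DESeq2 and with total counts. Lipoprotein lipid release had 2 higher by limma-trend, and 2 to 4 higher over the left-out libraries. Membrane uptake had 2 higher with total counts and 2 to 3 over the left-out libraries. Over these, the FABP relatives had 0 to 1 higher (*Fabp7*), PPAR targets had 2 to 5 higher, and fatty acid receptors 0 to 3 lower, with 1 lower in thinned libraries. The longest transcript in place of merged exons moved 0 of 20 length-scaled levels past their SD and kept their order. Depth limits *Fabp3* most, at 7 to 32 counts per library.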
